A study of Mus musculus with 18 samples.

Results

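The genes described here encode receptors for serotonin, dopamine, noradrenaline and adrenaline, acetylcholine and histamine. They were taken from the deposited table by symbol alone, with no measured value used: all Htr receptor genes, Drd3 to Drd5, the alpha and beta adrenergic receptor genes, Chrm1 to Chrm5, the Chrn subunit genes without Chrna3 and Chrnb4, and Hrh1 to Hrh4. The rule found 49 genes among 50559, and 41 of them passed the expression filter that left 18452 genes for testing. Of the 14 serotonin receptor genes 13 passed, as did 3 of 3 dopamine, 6 of 6 alpha adrenergic, 3 of 3 beta adrenergic, 4 of 5 muscarinic, 9 of 14 nicotinic and 3 of 4 histamine receptor genes.

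RNA came from the thalamus of wild-type (WT) mice in 18 libraries, 6 in each of 3 groups. The control group received saline, the model group a treatment labelled Coll IV, and the intervene group Coll IV+remodelin. The study, by its title, concerns remodelin, an inhibitor of the RNA acetyltransferase NAT10, in thalamic hemorrhage. Coll IV is not expanded in the labels, which also give no dose, time, age or sex. Nor do they say whether each library comes from an animal of its own, and the p-values rest on the spread between libraries, which may be technical.

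As background, serotonin, dopamine, noradrenaline and histamine reach the thalamus on fibres from small cell groups in the brainstem and hypothalamus, and acetylcholine mainly on fibres from the brainstem. Most of their receptors are coupled to G proteins. Those linked to Gs raise cyclic AMP, those linked to Gi lower it, and those linked to Gq activate phospholipase C. Nicotinic receptors and the serotonin 3 receptor are instead pentameric ion channels, and the subunits they contain set their affinity and ion selectivity. In the thalamus these transmitters change relay neurons between burst and tonic firing across sleep and waking.

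Library totals ranged from 28481225 to 118461420 counts, the highest being control 1. Within each group, libraries numbered 1 to 3 and libraries numbered 4 to 6 stood apart, a division that the labels do not explain and that was noticed in the data; the 2 runs of numbers are called replicate sets below. Markers of brain regions differed between the sets (no marker was at 0 in any group and set). Summed CPM (counts scaled by TMM and library size) of 9 thalamic neuron markers was 741 to 914 in controls 1 to 3 against 110.3 to 124 in controls 4 to 6, 465 to 897 against 162 to 276 in model, and 608 to 695 against 437 to 645 in intervene. For 8 cortical and hippocampal neuron markers the ranges were 343 to 2495 against 5365 to 6248, 1781 to 3308 against 4049 to 6067, and 1156 to 2796 against 2261 to 5336. For 8 hypothalamus markers they were 249 to 1008 against 2.52 to 4.35, 247 to 514 against 30.9 to 77.95, and 7.44 to 601 against 61.9 to 1339. In the libraries numbered 4 to 6 of the control and model groups the labelled tissue was thus represented by thalamic markers at a lower level than in the libraries numbered 1 to 3. The part of these markers in the receptor differences was not tested, and fewer cells of a type and less RNA per cell cannot be told apart in bulk tissue.

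The promoter sequences of 6 receptor genes from the results below are shown. Htr2a, Hrh3 and Chrna4 differed between the replicate sets in all 3 groups, and Adra2b, Chrm3 and Htr7 gave an intervene-control difference that itself differed between the sets without regard to which library was left out. Chrna6 and Chrnb3 also differed between the sets in all 3 groups but are not shown, because no RefSeq promoter was matched for them. Each sequence runs 5′ to 3′ from 250 bases before to 50 bases after the RefSeq gene start on GRCm38.p6, a build other than the one the counts refer to. Capitals mark a match on either strand to 1 of 5 motifs: the GC box GGGCGG, the TATA box TATAAA, the CCAAT box CCAAT, the cAMP response element TGACGTCA or the E-box CACGTG, no motif of which is contained in another, although matches can overlap.
Htr2a: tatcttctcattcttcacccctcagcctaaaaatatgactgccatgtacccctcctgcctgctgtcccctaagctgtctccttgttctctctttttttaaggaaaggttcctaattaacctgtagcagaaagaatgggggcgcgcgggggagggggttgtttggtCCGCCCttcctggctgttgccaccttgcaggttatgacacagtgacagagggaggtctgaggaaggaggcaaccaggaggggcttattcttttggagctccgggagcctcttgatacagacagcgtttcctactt
Hrh3: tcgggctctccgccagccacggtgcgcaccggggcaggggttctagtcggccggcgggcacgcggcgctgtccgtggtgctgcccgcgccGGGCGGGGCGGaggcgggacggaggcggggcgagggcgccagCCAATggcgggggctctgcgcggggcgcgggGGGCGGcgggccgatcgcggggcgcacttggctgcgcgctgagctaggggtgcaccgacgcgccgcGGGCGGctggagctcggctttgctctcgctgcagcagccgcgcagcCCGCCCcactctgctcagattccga
Chrna4: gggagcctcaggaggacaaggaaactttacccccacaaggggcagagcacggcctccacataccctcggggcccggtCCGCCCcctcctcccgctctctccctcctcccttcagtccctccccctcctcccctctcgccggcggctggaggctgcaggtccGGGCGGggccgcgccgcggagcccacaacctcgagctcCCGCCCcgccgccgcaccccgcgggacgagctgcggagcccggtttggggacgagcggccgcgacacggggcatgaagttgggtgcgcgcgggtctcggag
Adra2b: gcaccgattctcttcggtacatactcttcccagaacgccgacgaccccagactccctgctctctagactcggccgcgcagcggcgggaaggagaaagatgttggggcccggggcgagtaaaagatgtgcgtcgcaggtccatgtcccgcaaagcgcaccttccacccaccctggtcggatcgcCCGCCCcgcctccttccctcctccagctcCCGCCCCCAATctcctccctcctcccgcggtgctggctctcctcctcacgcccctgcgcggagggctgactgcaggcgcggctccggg
Chrm3: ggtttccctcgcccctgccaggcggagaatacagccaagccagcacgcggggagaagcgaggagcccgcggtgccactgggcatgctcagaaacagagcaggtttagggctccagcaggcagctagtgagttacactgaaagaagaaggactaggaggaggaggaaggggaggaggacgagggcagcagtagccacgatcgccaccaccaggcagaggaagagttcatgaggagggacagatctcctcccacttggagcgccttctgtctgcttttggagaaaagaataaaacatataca
Htr7: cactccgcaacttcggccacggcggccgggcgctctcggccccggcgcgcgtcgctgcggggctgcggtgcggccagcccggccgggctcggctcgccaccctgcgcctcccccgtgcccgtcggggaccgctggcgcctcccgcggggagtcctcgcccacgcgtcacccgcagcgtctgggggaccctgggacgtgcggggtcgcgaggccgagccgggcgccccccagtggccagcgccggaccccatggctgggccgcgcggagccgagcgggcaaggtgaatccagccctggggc

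The window of Htr2a lies at chr14:74640624-74640923 (plus strand) and has a GC content of 52.0% and 1 GC box. That of Hrh3, at chr2:180104358-180104657 (minus strand), has a GC content of 79.0%, 5 GC boxes and 1 CCAAT box, and that of Chrna4, at chr2:181039128-181039427 (minus strand), 74.3% and 3 GC boxes. The window of Adra2b, at chr2:127362929-127363228 (plus strand), has a GC content of 68.0%, 2 GC boxes and 1 CCAAT box. Neither Chrm3, at chr13:10360754-10361053 (minus strand) with a GC content of 57.3%, nor Htr7, at chr19:36057311-36057610 (minus strand) with 81.0%, holds any of the 5 motifs. RefSeq promoters were matched for 36 of the 49 receptor genes and for 30 of the 41 tested. The receptor windows counted below are the 38 windows of those 30 tested genes. The GC box was in 63.2% of the receptor windows and in 35.7% of 32851 promoters of the same length; for the CCAAT box the shares were 31.6% and 37.4%, for the TATA box 5.3% and 13.6%, for the E-box 7.9% and 7.2%, and for the cAMP response element 0 of 38 windows and 1.8%. Median GC content was 59.5% over the receptor windows and 52.7% over all promoters. These matches describe letters only. In RefSeq's gene order, 3 pairs of receptor genes are neighbours: Chrnb3 and Chrna6 on chromosome 8, Htr3a and Htr3b on chromosome 9, and Chrnd and Chrng on chromosome 1.

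Levels were compared between genes per length, as mean FPKM over the 18 libraries (± SD). The histamine H3 receptor gene Hrh3, whose product is a Gi-linked receptor that limits release of histamine and other transmitters from nerve endings, had the highest level at 11.5 ± 4.19. Its value ranged from 5.94 to 18.2. The muscarinic M1 receptor gene Chrm1, Gq-linked and typical of cortical and hippocampal pyramidal neurons, followed at 7.78 ± 3.46, and the Gq-linked serotonin 2C receptor gene Htr2c at 4.98 ± 2.53. In the other families the highest levels were those of Adra1d (3.30 ± 1.76), a Gq-linked adrenergic receptor, Chrnb2 (3.18 ± 0.598), the beta subunit of the common high-affinity nicotinic receptors of the brain, Adrb1 (2.38 ± 0.903), a Gs-linked adrenergic receptor, and Drd5 (0.839 ± 0.404), a Gs-linked dopamine receptor. The SDs show that Chrm1, Htr2c and Adra1d overlapped in level across libraries. The lowest mean levels among tested members were those of Htr2b (0.0193), Drd3 (0.0303) and Drd4 (0.0537).

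**Figure D1:**
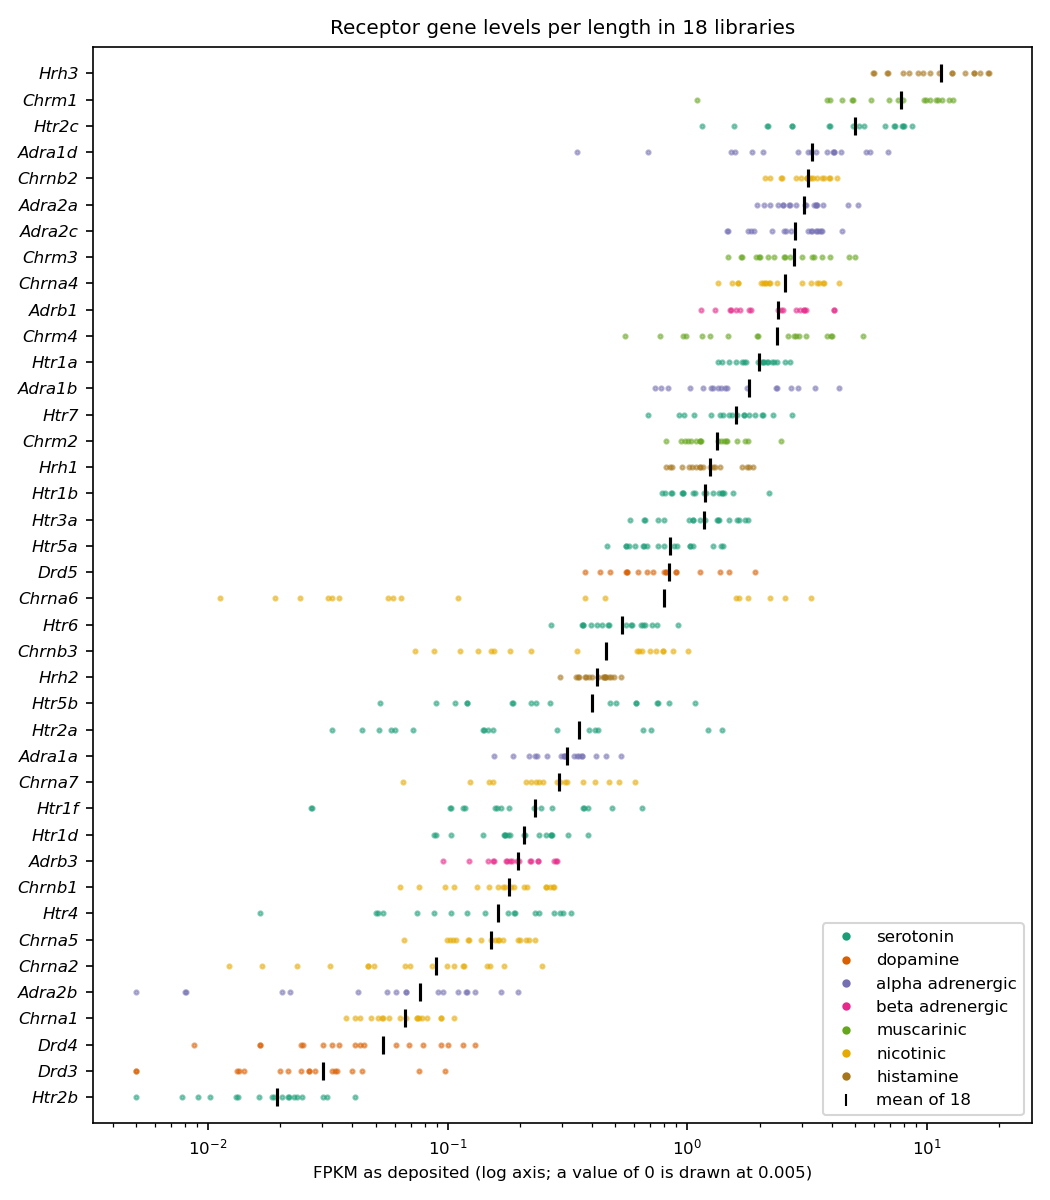
Mean FPKM of 40 tested receptor genes over 18 libraries, on a log axis, with each library as a point and the families in colour. Hrh3 has the highest mean, 11.5, and Htr2b the lowest, 0.0193.

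The order of levels differed between the replicate sets. In controls 1 to 3 the highest mean FPKM (± SD, n = 3) were those of Hrh3 (9.27 ± 3.39), Htr2c (7.28 ± 1.86) and Chrm1 (4.50 ± 3.44). In controls 4 to 6 they were those of Hrh3 (16.002 ± 1.83), Chrm1 (12.2 ± 0.650) and Adra1d (5.57 ± 1.39). Hrh3 ranked first in 5 of the 6 combinations of group and set, and Htr2c did so in intervene 1 to 3, where its 7.496 ± 0.331 and the 7.08 ± 1.24 of Hrh3 lay within their spread.

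A total of 8 genes did not pass the filter: Hrh4, Chrm5, Htr3b and the nicotinic subunit genes Chrna9, Chrna10, Chrnd, Chrne and Chrng. Chrnd and Chrng, with Chrne, encode subunits of the muscle nicotinic receptor, and Chrna9 and Chrna10 those of the receptor of cochlear hair cells. Chrng had 0 counts in all 18 libraries. Among the others the highest single value was 0.603 CPM, for Htr3b in control 2.

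In the 3 comparisons of whole groups no receptor gene was called. Calls use edgeR's quasi-likelihood test with Benjamini-Hochberg adjustment over 18452 genes and a threshold of 0.05. For model against control 0 of 41 genes were called, beside 0.0% of all genes tested, with 0 members and 310 genes (1.68%) at an unadjusted p under 0.05. For intervene against model 0 of 41 were called, again beside 0.0%, with 0 members and 531 genes (2.88%) at an unadjusted p under 0.05. For intervene against control the count was 0 beside 0.0%, with 3 members and 1551 genes (8.41%) at an unadjusted p under 0.05. DESeq2 and limma called 0 members in each of the 3 as well. The median log2 fold change of the members was -0.07, -0.07 and -0.16 in these comparisons, with -0.0012, 0.0043 and 0.0045 over all genes tested, and 0 members separated the groups without overlap, beside 0.13%, 0.211% and 0.488% of all genes. The 3 comparisons share groups and so are not independent.

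Members of low p show how wide the groups were. The Gq-linked Adra1b had a lowest, median and highest CPM of 8.13, 15.3 and 33.001 in control, 6.17, 14.9 and 21.5 in model and 5.47, 10.6 and 13.5 in intervene. The groups overlapped, with a log2 difference of -0.53 ± 0.38 (SE) for intervene against model (edgeR adjusted p = 0.988) and -0.84 ± 0.38 for intervene against control (adjusted p = 0.577). For Htr2a, the Gq-linked serotonin 2A receptor gene, the values were 0.181, 2.40 and 8.01 in control and 0.291, 0.640 and 2.38 in intervene, a log2 difference of -1.78 ± 0.83 (edgeR adjusted p = 0.592).

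The groups also overlapped for other members of low p. Htr1b, a Gi-linked receptor gene of nerve endings, had 7.95, 10.9 and 20.2 CPM in control and 7.12, 9.17 and 13.2 in model (-0.28 ± 0.21 on the log2 scale, edgeR adjusted p = 1.00). Chrna6, an alpha subunit gene of nicotinic receptors on catecholamine neurons, had 0.0664, 5.49 and 17.9 in control and 0.112, 0.484 and 9.24 in model (-1.65 ± 1.32, adjusted p = 1.00). Both pairs of groups overlapped, Chrna6 over a range set by the replicate sets. Between intervene and model, Chrm3, the Gq-linked M3 receptor gene, had 18.8, 28.7 and 33.9 in model and 16.1, 20.003 and 25.7 in intervene (-0.40 ± 0.27, edgeR adjusted p = 0.988). Hrh3 had 40.5, 74.6 and 102 and 33.3, 57.1 and 72.4 (-0.40 ± 0.29, adjusted p = 0.988). The ranges of both genes overlapped between the groups.

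**Figure D2:**
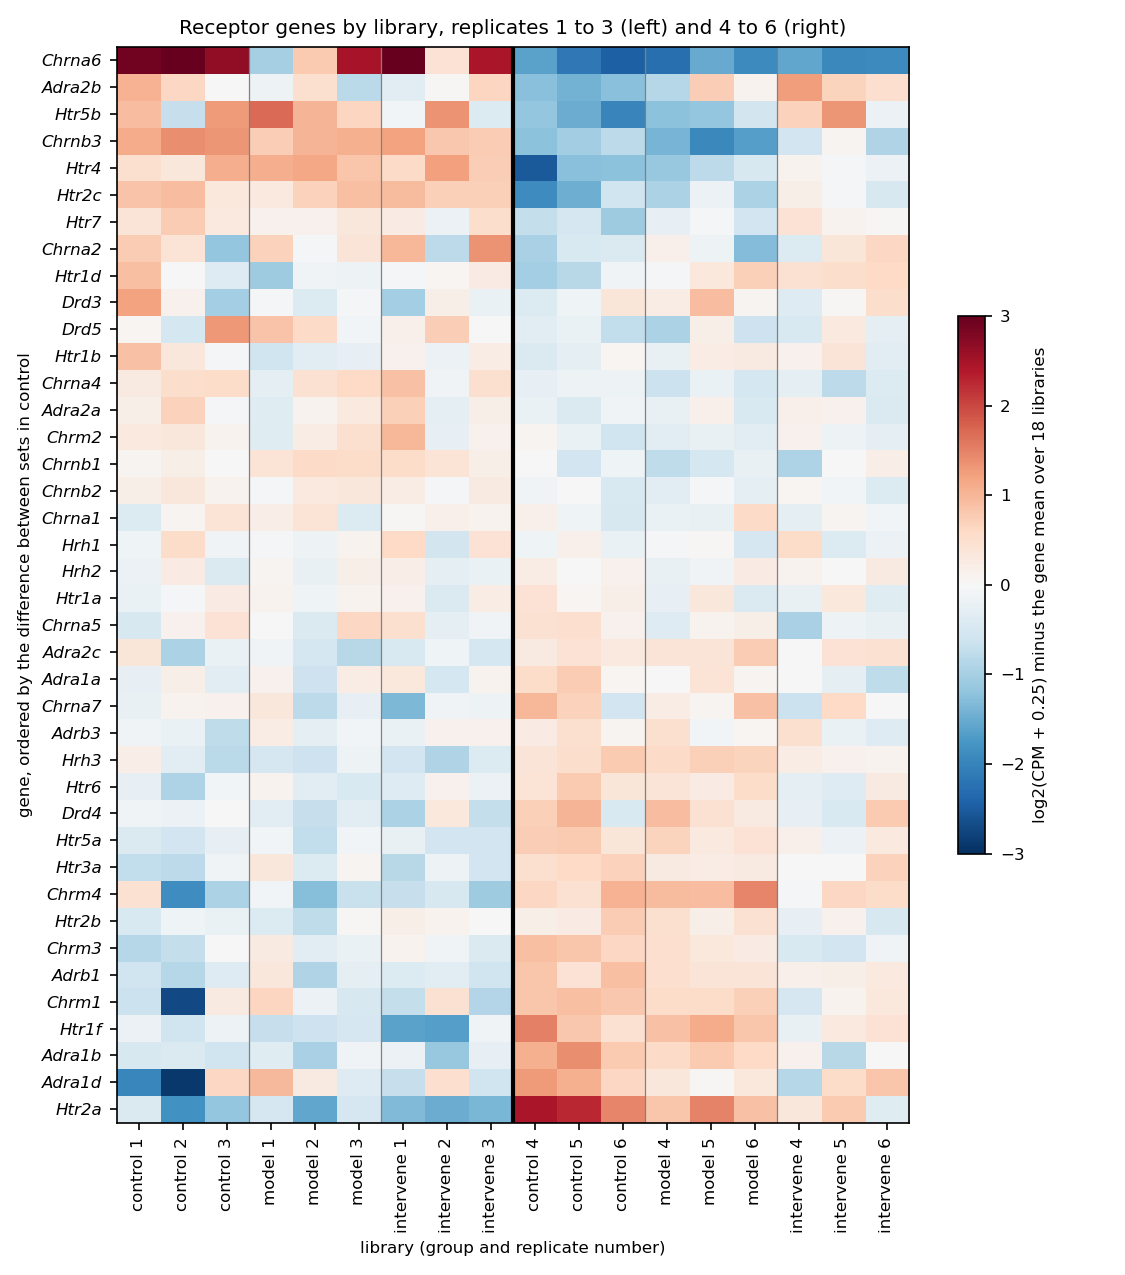
Log2 CPM (with 0.25 added) of 40 tested receptor genes in each of the 18 libraries, minus the mean of each gene, with replicates 1 to 3 on the left and 4 to 6 on the right and genes ordered by the difference between these sets in control. Chrna6 and Chrnb3 are lower and Htr2a higher on the right than on the left in each group.

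Within each group, some receptor genes differed between the replicate sets. Between replicates 4 to 6 and 1 to 3, 21 of the 41 genes were called in control beside 38.2% of all genes tested, 10 of them higher in replicates 4 to 6 beside 18.6% and 11 lower beside 19.6%. In model 14 were called beside 18.7%, 7 higher beside 8.91% and 7 lower beside 9.78%. In intervene 5 (12.2%) were called beside 14.9%, a share below that of all genes. Of these, 2 were higher beside 7.76% and 3 lower beside 7.16%. The median absolute log2 difference of the members was 0.99 in control, 0.71 in model and 0.51 in intervene, with 0.38, 0.29 and 0.28 over all genes tested. The members' median also exceeded that of all genes in comparisons of groups where no gene was called. It was 0.23 beside 0.12 for intervene against model, and 0.32 beside 0.16 for model against control in replicates 4 to 6. Such a gap is thus not particular to the replicate sets. The sets did not overlap in 24, 22 and 13 members, beside 52.0%, 37.9% and 31.6% of all genes. Called in at least 1 group were 24 members: 5 in all 3 groups (Chrna6, Chrnb3 and Chrna4 lower and Htr2a and Hrh3 higher in replicates 4 to 6), 6 in 2 groups and 13 in 1. No member was called in opposite directions. The share of all genes called in this many groups was not counted, so these tallies cannot show a recurrence particular to receptor genes. Leaving out 1 library moved the count in model to as few as 7 (without model 2) or 8 (without model 4), and in intervene to between 2 (without intervene 5), 3 (without intervene 1 or 6), 8 (without model 2) and 9 (without control 2). The set division was itself noticed in these data, so these counts describe it and do not support it.

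**Figure D3:**
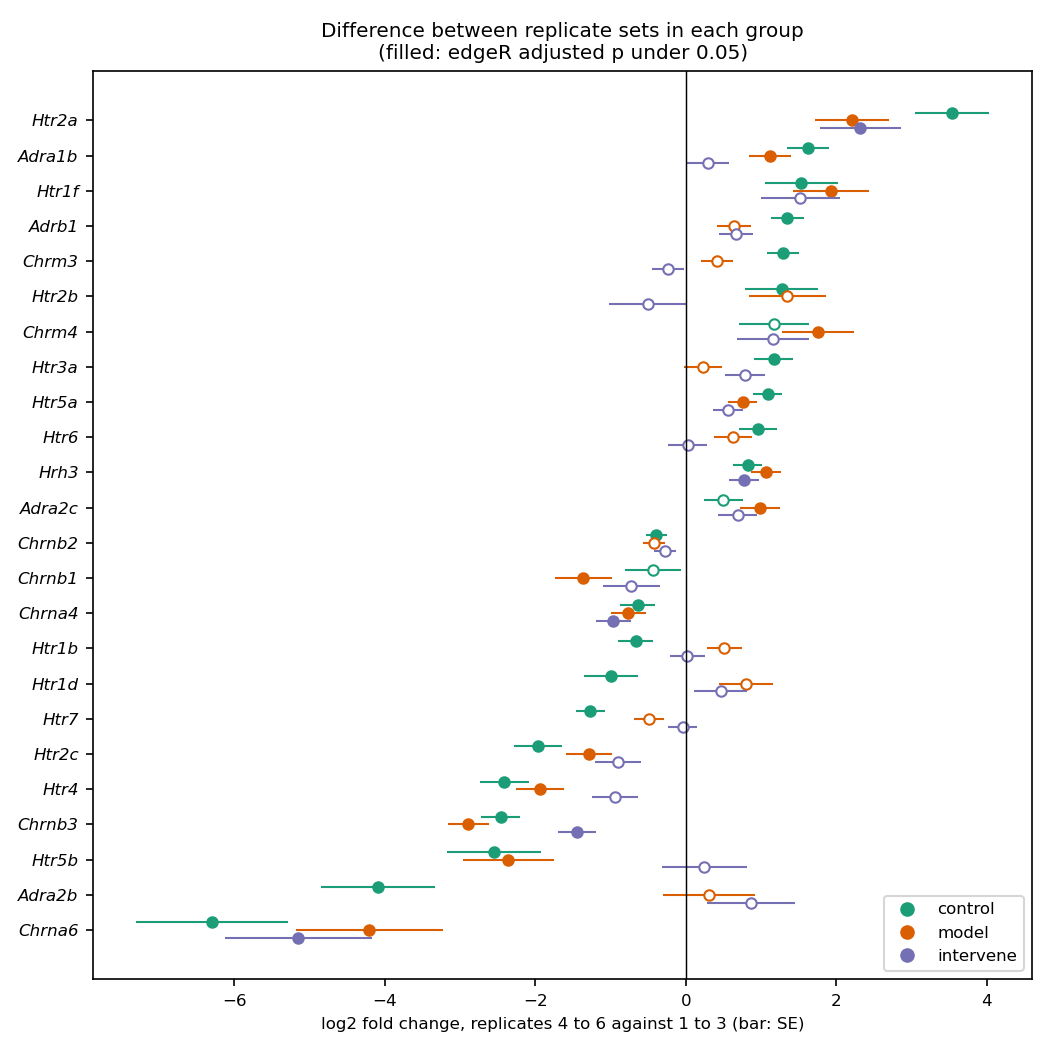
Log2 difference between replicates 4 to 6 and 1 to 3 with its standard error for the 24 receptor genes called in at least 1 group, in control, model and intervene, with called differences as filled points. Chrna6 reaches -6.30 in control and Htr2a 3.54.

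Among the serotonin receptor genes 6 were higher and 6 lower in controls 4 to 6. Htr2a had 0.877, 0.181 and 0.432 CPM in controls 1 to 3 and 8.01, 7.04 and 3.92 in controls 4 to 6, 0.828, 0.265 and 0.829 and 2.46, 3.999 and 2.56 in model, and 0.357, 0.291 and 0.342 and 1.66, 2.38 and 0.923 in intervene. All replicates 4 to 6 lay above all replicates 1 to 3 of their group. The log2 differences were 3.54 ± 0.50, edgeR adjusted p = 8.42e-05 in control, 2.21 ± 0.49, adjusted p = 0.00759 in model and 2.32 ± 0.54, adjusted p = 0.0113 in intervene; the last was lost without intervene 5 (adjusted p = 0.0512). Htr5a, a Gi-linked receptor gene, had 6.80, 6.21 and 7.77 and 15.8, 16.2 and 12.2 CPM in the control sets (1.09 ± 0.19, edgeR adjusted p = 0.000428) and 8.83, 5.51 and 8.77 and 15.05, 11.4 and 12.6 in the model sets (0.76 ± 0.19, adjusted p = 0.0136). Neither pair of sets overlapped, and the call in model was lost without model 2 or 4 (adjusted p = 0.0697 to 0.0744). Htr1f, also Gi-linked, had 0.811, 0.543 and 0.828 against 3.17, 1.84 and 1.40 in control (1.54 ± 0.48, edgeR adjusted p = 0.0184) and 0.491, 0.531 and 0.592 against 1.95, 2.34 and 1.89 in model (1.93 ± 0.50, adjusted p = 0.0156). Its calls were lost without control 2 or 4 (adjusted p = 0.0695 to 0.104) in control and without model 2 (adjusted p = 0.0637) in model.

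Of the other serotonin receptor genes higher in controls 4 to 6, Htr3a, the ion channel subunit, had 2.74, 2.65 and 4.43 and 6.76, 7.34 and 7.81 CPM (1.17 ± 0.26, edgeR adjusted p = 0.00227), with no overlap. The Gs-linked Htr6 had 3.21, 1.90 and 3.60 and 5.19, 6.75 and 4.98 (0.96 ± 0.26, edgeR adjusted p = 0.00772), also without overlap. Htr2b, a Gq-linked receptor gene, stood at 0.139, 0.241 and 0.216 and 0.352, 0.382 and 0.664 (1.27 ± 0.49, edgeR adjusted p = 0.0479). Its call was lost without control 1, 2, 3, 4, 5 or 6 or model 1, 4, 5 or 6 or intervene 1, 2, 3, 4 or 6 (adjusted p = 0.0524 to 0.191).

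Lower in replicates 4 to 6 was Htr2c, with 73.6, 77.5 and 50.5 CPM in controls 1 to 3 and 10.7, 14.6 and 26.6 in controls 4 to 6 (-1.96 ± 0.31, edgeR adjusted p = 0.000339), and 49.5, 65.4 and 75.6 against 20.996, 36.1 and 20.9 in model (-1.29 ± 0.31, adjusted p = 0.0124). The sets did not overlap in either group, and the call in model was lost without model 4 or 6 (adjusted p = 0.0543 to 0.0566). The choroid plexus is known for its high Htr2c level, and the summed CPM of 6 choroid plexus markers was 43.4 to 734 and 3.20 to 6.24 in the control sets, 3308 to 5599 and 60.1 to 109.8 in the model sets and 84.1 to 10350 and 125 to 4062 in the intervene sets; its part in the Htr2c values was not tested. Htr4, a Gs-linked receptor gene, had 5.85, 5.31 and 9.07 against 0.513, 1.60 and 1.63 CPM in control (-2.41 ± 0.33, edgeR adjusted p = 7.34e-05) and 9.14, 9.55 and 7.61 against 1.73, 2.28 and 2.87 in model (-1.94 ± 0.32, adjusted p = 0.00147). These sets did not overlap. Htr7, Gs-linked and known in midline and intralaminar thalamus, had 15.9, 20.5 and 14.8 against 7.18, 8.38 and 5.61 in control (-1.27 ± 0.20, edgeR adjusted p = 0.000187), again without overlap.

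Htr5b, a receptor gene known from the habenula, had 5.15, 1.51 and 6.62 CPM in controls 1 to 3 and 1.03, 0.763 and 0.465 in controls 4 to 6 (-2.55 ± 0.62, edgeR adjusted p = 0.00513), and 8.96, 5.44 and 4.15 against 0.949, 1.01 and 1.68 in model (-2.36 ± 0.61, adjusted p = 0.0165). No value overlapped between sets, and the call in model was lost without model 4 or 5 (adjusted p = 0.0551 to 0.07). The Gi-linked receptor genes Htr1b and Htr1d were lower in controls 4 to 6 with overlapping sets. Htr1b had 20.2, 13.8 and 10.4 and 7.95, 8.92 and 11.4 (-0.67 ± 0.23, edgeR adjusted p = 0.032; lost without control 1, 2, 4 or 5 (adjusted p = 0.0502 to 0.22)). Htr1d had 6.03, 3.14 and 2.30 and 1.41, 1.63 and 2.86 (-0.99 ± 0.36, edgeR adjusted p = 0.0365; lost without control 1, 4 or 5 (adjusted p = 0.131 to 0.298)). Htr1a, the Gi-linked autoreceptor gene, was not called in any of the 15 comparisons and ranged from 12.7 to 23.3 CPM over the 18 libraries.

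Of the adrenergic receptor genes, Adra1b had 8.79, 9.11 and 8.13 CPM in controls 1 to 3 and 25.96, 33.001 and 21.6 in controls 4 to 6 (1.63 ± 0.28, edgeR adjusted p = 0.000428). In model it had 9.51, 6.17 and 11.4 against 18.5, 21.5 and 18.8 (1.12 ± 0.28, edgeR adjusted p = 0.0136), a call lost without model 2 (adjusted p = 0.0719). Neither pair of sets overlapped. Adrb1 had 8.89, 7.42 and 10.3 against 24.3, 18.3 and 25.5 CPM in control (1.35 ± 0.22, edgeR adjusted p = 0.000284), with no overlap. The Gi-linked Adra2c had 15.8, 11.8 and 9.48 against 22.3, 22.3 and 29.1 in model (0.99 ± 0.26, edgeR adjusted p = 0.0179), a call lost without model 2, 3 or 6 (adjusted p = 0.0711 to 0.0762). The Gi-linked Adra2b was the adrenergic gene lower in controls 4 to 6: its counts summed to 204 in controls 1 to 3 and 6 in controls 4 to 6, or 1.31, 0.905 and 0.504 against 0.0641, 0.0347 and 0.0664 CPM (edgeR adjusted p = 0.000678). The ratio of controls 1 to 3 over 4 to 6 from these counts was 22.1, with an exact 95% interval of 9.98 to 60.9, or 7.35 to 109 with counts halved because read ends appear to have been counted singly; both intervals cover counting error only. Adra1d, Adra2a, Adra1a and Adrb3 were not called between sets, and Adra1d spread from 1.69 to 21.8 CPM within controls 1 to 3. Between the control sets limma called Adra1d on both FPKM scales (adjusted p = 0.00983 and 0.0124), and so did edgeR without control 3 (log2 difference 3.43, adjusted p = 0.000913). Adra1a was called there without control 6 (edgeR adjusted p = 0.0395).

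The dopamine receptor genes Drd3, Drd4 and Drd5 were not called in any comparison, although edgeR without control 2 called Drd5 lower in controls 4 to 6 than in the other controls (adjusted p = 0.0365). Drd5 ranged from 2.29 to 11.8 CPM, Drd4 from 0.0713 to 1.01, and Drd3 from 0 to 0.918. Drd3 and Drd4, Gi-linked receptor genes, had so few counts that a difference may not be detectable at this depth.

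Of the muscarinic receptor genes, Chrm3 had 13.2, 14.5 and 23.8 CPM in controls 1 to 3 and 45.1, 42.7 and 37.1 in controls 4 to 6 (1.29 ± 0.21, edgeR adjusted p = 0.000305), with no overlap. Chrm4, the Gi-linked M4 receptor gene typical of striatal neurons, had 13.9, 5.84 and 9.15 in model 1 to 3 and 28.6, 28.1 and 40.96 in model 4 to 6 (1.76 ± 0.48, edgeR adjusted p = 0.0223). Those sets did not overlap, but the call was lost without model 2, 3 or 6 (adjusted p = 0.0671 to 0.102). The summed CPM of 6 striatal markers in the same sets was 231 to 290.2 and 1166 to 2739, and their part in the Chrm4 values was not tested. Chrm4 had 20.30, 3.80 and 7.45 against 22.5, 20.27 and 30.3 in control, not called in the main fit. In intervene it had 8.88, 10.5 and 6.80 against 14.1, 22.7 and 21.7, also not called there. Between the control sets DESeq2 (adjusted p = 0.0408), limma (up to 0.0143) and edgeR without control 1 (0.00118) called it higher in replicates 4 to 6. Chrm1 had 54.2, 12.9 and 103 against 151, 159.7 and 149 in control, 133, 75.4 and 61.5 against 126, 125 and 141 in model and 51.9, 117 and 46.5 against 59.95, 91.8 and 106 in intervene. Its control sets did not overlap, and edgeR did not call it (1.44 ± 0.56, adjusted p = 0.0557), whereas DESeq2 did (adjusted p = 0.0336), as did limma. Chrm2, Gi-linked, was not called.

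The nicotinic subunit genes that were called were all lower in replicates 4 to 6. Chrnb3, which encodes an accessory subunit found with the alpha-6 subunit, had 7.10, 8.72 and 8.28 CPM in controls 1 to 3 and 1.22, 1.42 and 1.73 in controls 4 to 6, 5.49, 6.63 and 6.87 and 1.06, 0.652 and 0.840 in model, and 7.63, 5.73 and 5.59 and 2.03, 3.36 and 1.57 in intervene. The sets did not overlap in any group, with log2 differences of -2.46 ± 0.26, edgeR adjusted p = 1.16e-05 in control, -2.89 ± 0.27, adjusted p = 4.46e-05 in model and -1.44 ± 0.25, adjusted p = 0.0033 in intervene. Chrna6, its neighbour in the genome, had 12.5, 17.9 and 10.7 against 0.321, 0.139 and 0.0664 CPM in control, 0.614, 2.72 and 9.24 against 0.112, 0.355 and 0.210 in model and 15.4, 2.07 and 9.23 against 0.338, 0.201 and 0.205 in intervene. Every set 1 to 3 lay above its set 4 to 6, although model 1 to 3 was spread 15.1-fold. The log2 differences were -6.30 ± 1.01, edgeR adjusted p = 0.000377 in control, -4.20 ± 0.97, adjusted p = 0.0111 in model (lost without model 4 (adjusted p = 0.0534)) and -5.15 ± 0.98, adjusted p = 0.00583 in intervene, and with so few counts in replicates 4 to 6 their size depends on the prior count of the fit. These genes are known from the habenula and from catecholamine neurons; the summed CPM of 6 habenula markers was 164 to 236 against 58.1 to 107 in control, 159.8 to 202 against 96.9 to 122 in model and 119 to 176 against 160.5 to 205 in intervene, and its part in these values was not tested.

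Chrna4 and Chrnb2 together form the main high-affinity nicotine receptor of the brain, which thalamic neurons are known to carry. Chrna4 had 32.1, 38.4 and 39.3 CPM against 22.3, 24.1 and 24.01 in control, 22.1, 37.01 and 40.5 against 17.1, 23.3 and 18.4 in model and 49.3, 24.9 and 37.3 against 21.9, 15.4 and 19.9 in intervene. The sets overlapped in model only, where model 1 lay below model 5. The log2 differences were -0.64 ± 0.23, edgeR adjusted p = 0.0401 in control, -0.76 ± 0.23, adjusted p = 0.0345 in model and -0.96 ± 0.24, adjusted p = 0.0151 in intervene. Its calls were lost without control 2, 3, 4, 5 or 6 (adjusted p = 0.0783 to 0.11) in control, without model 2, 3, 4 or 6 (adjusted p = 0.105 to 0.13) in model and without intervene 1, 5 or 6 (adjusted p = 0.0534 to 0.0754) in intervene. Chrnb2 had 40.97, 45.5 and 38.9 against 33.7, 35.9 and 26.1 in control (-0.39 ± 0.15, edgeR adjusted p = 0.044), without overlap, a call lost without control 1, 2, 4 or 6 or model 2 or 6 or intervene 1 or 5 (adjusted p = 0.0503 to 0.19). Chrnb1, a subunit gene of the muscle receptor, had 1.07, 1.23 and 1.21 against 0.335, 0.444 and 0.595 in model (-1.36 ± 0.38, edgeR adjusted p = 0.0229), a call lost without model 2, 3, 4 or 5 (adjusted p = 0.0561 to 0.0951). Chrna1, Chrna2, Chrna5 and Chrna7, the last of which forms homomeric receptors, were not called between sets.

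Among the histamine receptor genes Hrh3 had 71.8, 49.9 and 35.4 CPM against 81.9, 89.6 and 107 in control, 43.9, 40.5 and 56.2 against 92.9, 102 and 99.8 in model and 41.5, 33.3 and 47.1 against 72.4, 68.3 and 67.1 in intervene. Replicates 4 to 6 lay above replicates 1 to 3 in each group. The log2 differences were 0.82 ± 0.20, edgeR adjusted p = 0.00429 in control, 1.07 ± 0.20, adjusted p = 0.00297 in model and 0.77 ± 0.20, adjusted p = 0.0191 in intervene, the last lost without intervene 1, 2, 5 or 6 (adjusted p = 0.052 to 0.0593). Hrh1, Gq-linked, and Hrh2, Gs-linked, were not called, with 7.64 to 17.3 and 4.21 to 6.98 CPM over the 18 libraries.

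Some calls between sets also depended on the fit. Without the filter on low counts, Chrna4 in control (adjusted p = 0.106) and model (0.0967) and Adra2c (0.0519), Chrm4 (0.0570) and Chrnb1 (0.0508) in model were no longer called. Limma on log2(FPKM + 1) did not call Chrna6 in model (adjusted p = 0.148) or Htr2a in intervene (0.126). On neither FPKM scale did limma call Htr1b, Htr1d, Chrnb2 or Htr2b in control (adjusted p up to 0.0558, 0.0718, 0.0685 and 0.206 over the alternatives that lost them). Library totals in place of TMM lost Chrnb2 and Htr2b as well, and Htr2b was also lost by DESeq2 and without the filter. Alternatives also made calls that the main fit did not, of which only some are given here. Between the intervene sets DESeq2 called Htr4 (adjusted p = 0.0157) and Htr2c (0.0147) lower in replicates 4 to 6. Limma did so on both FPKM scales (up to 0.0263 and 0.0377). Between the model sets DESeq2 (adjusted p = 0.0276) and limma on both scales (up to 0.0467) called Adrb1 higher in replicates 4 to 6.

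**Figure D4:**
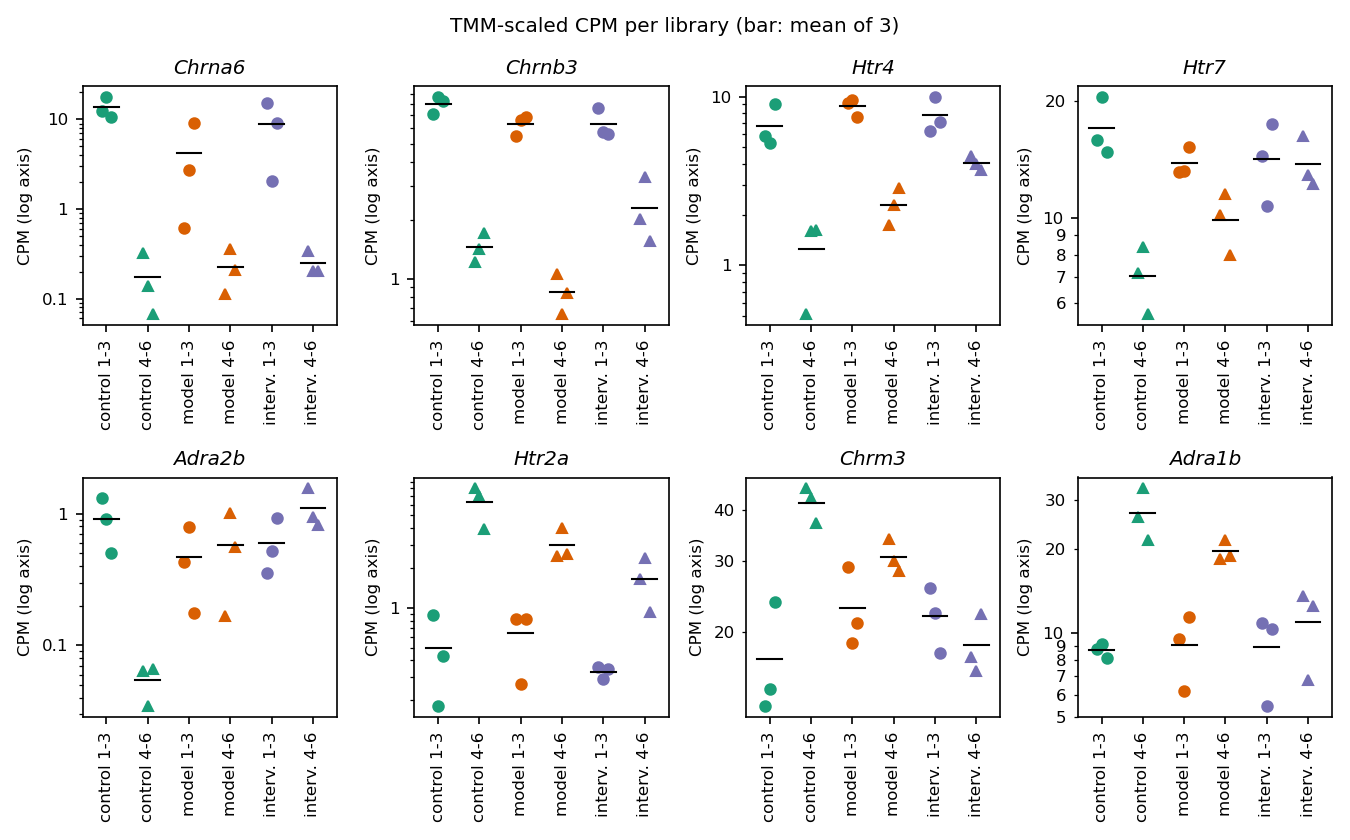
CPM of 8 receptor genes in every library by group and replicate set, on log axes, with 1 point per library and a bar at the mean of 3. Chrna6 and Chrnb3 are lower and Htr2a higher in replicates 4 to 6 of every group, while Adra2b in controls 4 to 6 does not exceed 0.0664 CPM.

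Within replicates 1 to 3, edgeR called no receptor gene between groups. Model against control gave 0 of 41 calls beside 0.0% of all genes (3 members and 5.83% of genes at an unadjusted p under 0.05). Intervene against model gave 0 beside 0.0% (1 member and 3.79%), and intervene against control 0 beside 0.0% (0 members and 8.56%). DESeq2 and limma also called 0 members in these. Within replicates 4 to 6, model against control gave 0 of 41 calls beside 0.0% (7 members and 10.2% of genes at an unadjusted p under 0.05). Limma called 0 there and DESeq2 called 1, Adra2b (adjusted p = 0.0135), named after its value was seen.

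Intervene against control within replicates 4 to 6 was the comparison of groups with the most receptor genes called, 11 of 41 (26.8%) beside 25.9% of all genes tested, a share near the background. The groups did not overlap in 21 members, beside 42.3% of all genes. Higher in intervene were 6, Adra2b and 5 serotonin receptor genes, beside 14.7%. Lower were 5, namely 2 serotonin, 2 alpha adrenergic and 1 muscarinic receptor gene, beside 11.2%. The same libraries differed in summed CPM of the 9 thalamic markers (437 to 645 in intervene and 110.3 to 124 in control, 8 of 9 called higher), of the 6 habenula markers (160.5 to 205 and 58.1 to 107, 3 of 6 higher) and of the 6 choroid plexus markers (125 to 4062 and 3.20 to 6.24, 5 of 6 higher). The 8 cortical and hippocampal markers stood at 2261 to 5336 and 5365 to 6248, with 0 of 8 called. The 8 hypothalamus markers summed to 61.9 to 1339 and 2.52 to 4.35, with 6 of 8 called higher. Also higher in intervene were 5 of 5 ependyma, 4 of 5 reactive astrocyte, 3 of 4 oligodendrocyte and 4 of 5 blood markers. Mitochondrial coding genes took 9.70%, 13.4% and 15.1% of counts in intervene 4 to 6 and 6.10%, 6.36% and 9.06% in controls 4 to 6, without overlap. The part of these markers and of the mitochondrial share was not tested. Without control 4, or without control 5, the number of receptor genes called was 7.

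Htr4 had 0.513, 1.60 and 1.63 CPM in controls 4 to 6 and 4.46, 3.99 and 3.66 in intervene 4 to 6 (1.68 ± 0.33, edgeR adjusted p = 0.00186). Htr5b had 1.03, 0.763 and 0.465 and 4.29, 6.85 and 2.26 (2.56 ± 0.63, edgeR adjusted p = 0.00819), and Htr7 7.18, 8.38 and 5.61 and 16.3, 12.9 and 12.2 (0.96 ± 0.20, edgeR adjusted p = 0.00254). In all 3 genes every intervene library lay above every control library. Htr2c had 10.7, 14.6 and 26.6 in control and 45.7, 38.8 and 29.1 in intervene (1.13 ± 0.31, edgeR adjusted p = 0.0158), a call lost without control 4 or 5 or intervene 4 (adjusted p = 0.0558 to 0.0716). Htr1d had 1.41, 1.63 and 2.86 and 4.33, 4.56 and 4.86 (1.23 ± 0.36, edgeR adjusted p = 0.0194), a call lost without control 4 or 5 (adjusted p = 0.0857 to 0.0873). Both genes were higher in intervene without overlap. Adra2b had 6 counts in controls 4 to 6, 2 in each library, and 98 in intervene 4 to 6, or 1.56, 0.940 and 0.821 CPM (edgeR adjusted p = 0.000932). The ratio from these counts was 21.9, with an exact 95% interval of 9.72 to 61.2, or 7.07 to 110 with counts halved.

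Among the genes lower in intervene 4 to 6 than in controls 4 to 6, Chrm3 had 17.4, 16.1 and 22.2 against 45.1, 42.7 and 37.1 CPM (-1.16 ± 0.21, edgeR adjusted p = 0.00122). Adra1b had 13.5, 6.78 and 12.5 against 25.96, 33.001 and 21.6 (-1.30 ± 0.28, edgeR adjusted p = 0.00347). Htr2a had 1.66, 2.38 and 0.923 against 8.01, 7.04 and 3.92 (-1.93 ± 0.46, edgeR adjusted p = 0.00633). In these 3 genes the groups did not overlap, and no single library ended a call. Adra1a had 9.54, 7.72 and 5.54 against 14.2, 16.5 and 9.96 (-0.84 ± 0.27, edgeR adjusted p = 0.0327), a call lost without control 4 or 5 or intervene 5 or 6 (adjusted p = 0.0784 to 0.141). Htr5a had 10.3, 8.26 and 11.4 against 15.8, 16.2 and 12.2 (-0.56 ± 0.19, edgeR adjusted p = 0.039), a call lost without control 4 or 5 or intervene 4 or 5 (adjusted p = 0.0692 to 0.154). Of the 11 calls, those of Adra1a (adjusted p = 0.0595) and Htr2c (0.0508) were lost without the filter on low counts, and those of Htr4 (0.0581) and Htr5b (0.0704) by limma on log2(FPKM + 1).

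**Figure D5:**
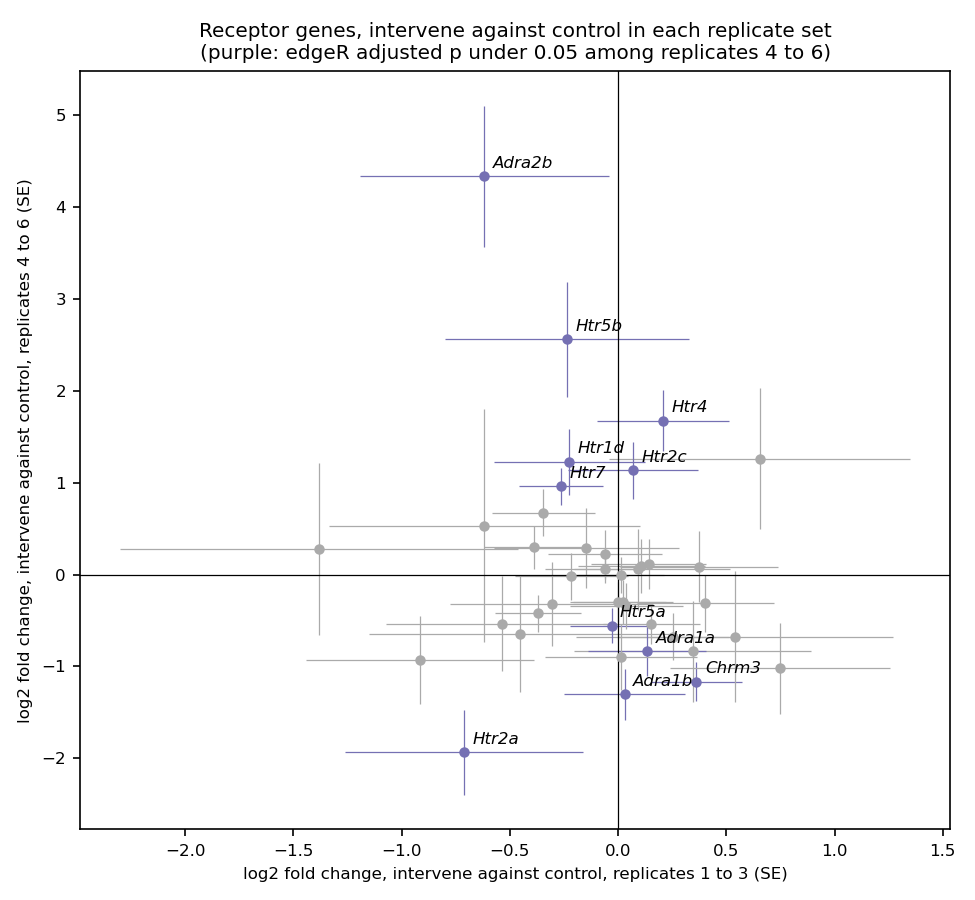
Log2 difference between intervene and control with its standard error for each of 40 tested receptor genes, within replicates 1 to 3 (horizontal axis) and within replicates 4 to 6 (vertical axis), with the genes called in replicates 4 to 6 in purple. No gene is called within replicates 1 to 3 and 11 are within replicates 4 to 6.

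Against model within replicates 4 to 6, Chrnb3 was the 1 receptor gene called in intervene, beside 5.71% of all genes tested in either direction and 3.66% higher. It had 1.06, 0.652 and 0.840 CPM in model 4 to 6 and 2.03, 3.36 and 1.57 in intervene 4 to 6 (1.44 ± 0.27, edgeR adjusted p = 0.00964), with every intervene library above every model library. The call remained when any 1 library was left out, but limma on log2(FPKM + 1) did not make it (adjusted p = 0.0946). The 6 habenula markers summed to 96.9 to 122 CPM in model and 160.5 to 205 in intervene, with 3 of 6 called higher, and the 9 thalamic markers to 162 to 276 and 437 to 645, with 5 of 9 higher. Of the reactive astrocyte markers 5 of 5 were higher in intervene, and of the hypothalamus markers 0 of 8 were called. The part of these markers was not tested. The number of receptor genes called was 2 without control 1, control 2, control 3 or model 1, and 3 without intervene 2. DESeq2 called 4: Chrnb3, Chrm3, Adra1b and Htr5b (adjusted p = 0.0154, 0.0280 and 0.0104 for the last 3, which were named after their values were seen).

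The difference between intervene and control was tested for a difference between the replicate sets with an interaction term. It was called in 6 of 41 receptor genes (14.6%), beside 17.9% of all genes tested, 4 with a more positive difference in replicates 4 to 6 beside 9.54% and 2 with a more negative one beside 8.37%. For Adra2b, Chrm3 and Htr7 the calls held in each fit with 1 library left out and in each other alternative run. Adra2b had 1.31, 0.905 and 0.504 CPM in controls 1 to 3 and 0.357, 0.518 and 0.932 in intervene 1 to 3, so that the intervene-control difference in replicates 4 to 6 exceeded that in replicates 1 to 3 by a log2 of 4.95 ± 0.97, edgeR adjusted p = 0.00345, a size that depends on the prior count. Chrm3 had 13.2, 14.5 and 23.8 and 25.7, 22.4 and 17.8 in the sets 1 to 3, an interaction of -1.53 ± 0.30, edgeR adjusted p = 0.00373. Htr7 had 15.9, 20.5 and 14.8 and 14.4, 10.7 and 17.5, an interaction of 1.22 ± 0.28, edgeR adjusted p = 0.00763. In each of these genes the groups overlapped in replicates 1 to 3 and were apart in replicates 4 to 6.

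The other 3 interactions were lost in some fits with 1 library left out, and also in other alternatives: that of Adra1b without the filter on low counts (adjusted p = 0.0847), that of Htr4 by limma (up to 0.421) and that of Htr5b in both (up to 0.159). That of Adra1b was -1.33 ± 0.39, edgeR adjusted p = 0.0291, lost without control 1, 3, 4 or 5 or intervene 1, 3 or 5 (adjusted p = 0.0523 to 0.0789). That of Htr4 was 1.47 ± 0.45, edgeR adjusted p = 0.0322, lost without control 3 or 4 or intervene 1, 3, 4 or 5 (adjusted p = 0.0543 to 0.0749). That of Htr5b was 2.80 ± 0.84, edgeR adjusted p = 0.0323, lost without control 1, 3, 5 or 6 or intervene 1, 3 or 5 (adjusted p = 0.0644 to 0.0814). The count of 6 became 3 without intervene 3 or intervene 5. For intervene against model the interaction was called in 0 of 41 genes beside 0.352% (5 members and 17.0% of genes at an unadjusted p under 0.05). Limma also called 0, DESeq2 called 2, Chrnb3 (adjusted p = 0.0129) and Htr5b (0.0260), and edgeR called Htr5b without intervene 2 (adjusted p = 0.0298). For model against control it was called in 0 of 41 beside 0.0% (7 members and 11.3% of genes at an unadjusted p under 0.05). There limma called 0 and DESeq2 called 2, Adra2b (adjusted p = 0.00807) and Htr1d (0.0447).

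Other genes of these transmitter systems were followed in 4 lists. Of 22 tested genes for synthesis, transport and breakdown of monoamines and acetylcholine, 1 was higher and 14 were lower in controls 4 to 6 than 1 to 3, with a median log2 difference of -1.69 over the list and -0.016 over all genes, beside 18.6% of all genes higher and 19.6% lower. Hdc, which makes histamine, averaged 17.02 ± 8.49 CPM in the 3 controls of the lower numbers and 1.06 ± 0.145 in the other 3 (± SD; edgeR adjusted p = 6.94e-05), and Ache, which breaks down acetylcholine, 146 ± 41.7 and 43.1 ± 3.58 (adjusted p = 0.000428). In the same libraries the 8 hypothalamus markers summed to 249 to 1008 and 2.52 to 4.35 CPM, with 7 of 8 called lower in controls 4 to 6, and their part in these values was not tested. Within replicates 4 to 6, 7 of the 22 were higher and 1 was lower in intervene than in control, beside 14.7% and 11.2% of all genes. Those included Slc18a3, the vesicular acetylcholine transporter, with 6.75 ± 1.62 against 1.11 ± 0.192 (edgeR adjusted p = 0.000476), while Hnmt, which inactivates histamine, was lower, with 23.5 ± 0.995 against 33.5 ± 1.63 (adjusted p = 0.00102). Against model, beside 5.71% of all genes called, 1 was higher and 1 lower, Slc29a4, the plasma membrane monoamine transporter, with 20.5 ± 4.91 against 6.41 ± 1.55 (adjusted p = 0.0138), and Hnmt.

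Of 11 tested nicotinic receptor chaperones and prototoxins, 4 were higher and 2 lower in controls 4 to 6 than 1 to 3, beside 18.6% and 19.6% of all genes. In intervene 4 to 6 against controls 4 to 6, 0 were higher and 4 lower, beside 14.7% and 11.2%. These 4 were Nptn, Ric3, an assembly chaperone, with 53.3 ± 5.77 against 65.1 ± 3.07 CPM (edgeR adjusted p = 0.0215), Lypd6, and Lynx1, a membrane-bound modulator of nicotinic receptors, with 272 ± 28.9 against 392 ± 41.4 (adjusted p = 0.0121). Of 23 G protein alpha subunit and effector genes, 5 were higher and 4 lower in the same comparison, with the same shares of all genes. Gnai2, an alpha subunit of Gi, was higher at 380.4 ± 28.5 against 188 ± 19.1 CPM (edgeR adjusted p = 3.41e-05), and Adcy2, an adenylyl cyclase, lower at 81.5 ± 1.30 against 129.9 ± 4.78 (adjusted p = 0.00145). Of 22 receptor kinase, arrestin and RGS genes, 5 were higher and 6 lower there, again beside 14.7% and 11.2%. They included Rgs10 at 71.4 ± 7.05 against 40.8 ± 7.18 (edgeR adjusted p = 0.00108) and Arrb1, the beta-arrestin 1 gene, at 169 ± 9.48 against 251 ± 24.9 (adjusted p = 0.00348). In the 3 comparisons of whole groups 0 genes of the 4 lists were called.

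Receptor genes also varied among libraries of the same group and set. Over members with a mean of at least 1 CPM, the median coefficient of variation was 28.1% in controls 1 to 3 (32 genes) and 17.4% in controls 4 to 6 (32), 24.0% and 17.2% in model (32 and 32), and 23.4% and 25.3% in intervene (33 and 34). The widest spreads were those of Chrna6 in model 1 to 3, Adra1d in controls 1 to 3 (12.9-fold between lowest and highest) and Chrm1 in controls 1 to 3 (7.96-fold). In controls 1 to 3 the lowest library for Adra1d, Chrm1 and Chrm4 was control 2. The 8 cortical and hippocampal markers summed to 885, 343 and 2495 CPM in these 3 libraries, and the part of those markers was not tested.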

How the data were processed

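Gene expression was measured by RNA-seq (oligo(dT) capture, per the labels' protocols) in 18 thalamus libraries. HISAT2, featureCounts and GRCm39 are named in the submitters' processing notes, without versions, and strand is not given. The authors deposited raw counts and FPKM. FPKM equalled the count over length and total, with 1 whole length in all libraries for 18117 of 18117 genes at a relative tolerance of 1e-06. All 18117 implied lengths were even, and 73.2% of the members' counts above 0 were even, so read ends appear to have been counted singly, and an FPKM may be off by a constant factor that leaves the order between genes as it is. Reads from near-identical or overlapping genes may be divided differently between copies.

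The test was that of edgeR 4.0.16, run under R 4.3.3 (robust quasi-likelihood F test, TMM scaling, filterByExpr) in a fit with a mean per group and a fit with a mean per group and replicate set, giving 15 comparisons, each adjusted by the Benjamini-Hochberg method over the 18452 genes kept, at 0.05 without a fold minimum. The log2 fold changes stand with their SE, which is the absolute log2 fold change over the square root of F. The fits were tested on simulated data with known changes in genes with a mean of at least 1 CPM. The simulated whole-group comparison held no difference between the replicate sets. That test therefore does not cover members of few counts or whole groups whose replicate sets differ. Alternatives were DESeq2 1.42.0, limma 3.58.1 on log2(FPKM + 1) or log2(FPKM + 0.1), RLE factors or library totals, no filter, the replicate set as a term, the replicate number as a block, and leaving out each of the 18 libraries in turn. No library repeated another of its group (chi-square over degrees of freedom of at least 11.4). Promoters and their motifs came from RefSeq on GRCm38.p6.

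Members, gene lists and tests were chosen with earlier results of these data known, including the division of replicates 1 to 3 and 4 to 6. All tested members may be named, except 1 that is counted but not reported here; values in every sample are given for members called in a comparison, the highest per family and the 3 of lowest p in each whole-group comparison, and up to 4 genes of each other list by p. Same-numbered control and model libraries deviated together (correlation over genes of 0.18 to 0.63, over 0.1 in 6 of 6 pairs), which met the threshold used here for pairing. The other pairs of groups did not (5 of 6 and 3 of 6). Deviations were taken from the mean of all 6 libraries of a group, so they held the difference between the sets. Same-numbered libraries are always of the same set, so these correlations cannot show pairing by number.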

Additional observations from a re-analysis of the deposited data

Results flagged for a closer look

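Single libraries stood far from the others of their group of 6 in 5 of 123 combinations of member and group (4.1%) by Dixon's test. Its nominal rate is about 1 in 20. That rate need not hold here, because each group of 6 pooled the replicate sets, so the share of 4.1% cannot be judged against it. Drd3 reached 0.711 CPM in model 5, where the next highest model library had 0.335. Chrna6 reached 9.24 CPM in model 3, above the 2.72 of model 2. Chrm2 reached 32.7 in intervene 1, above the 17.96 of intervene 3. Drd5 reached 11.8 in control 3, above the 4.79 of control 1, and Htr1d 6.03 in control 1, above the 3.14 of control 2.

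The intervene-control difference in replicates 4 to 6 differed from that in replicates 1 to 3, by edgeR's interaction term, in 6 receptor genes. These were 14.6% of the 41 tested, a share below the 17.9% of all genes tested. On the log2 scale the size was 4.95 ± 0.97 for Adra2b, 2.80 ± 0.84 for Htr5b, 1.47 ± 0.45 for Htr4, 1.22 ± 0.28 for Htr7, -1.53 ± 0.30 for Chrm3 and -1.33 ± 0.39 for Adra1b. The libraries whose omission ends a call are given with each gene above.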

How the results depend on the processing

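Under the alternatives, 350 counts of receptor genes called stayed within 1.5 times the main count and 25 did not. Many of the 350 were counts of 0 that stayed at 0, for which such a ratio has no meaning. Of the 58 calls of single genes, each refitted 18 times with 1 library left out, 101 of 1044 refits lost the call, and under the other alternatives 31 of 366 did. Most of the 1044 refits left out a library that was not in the comparison. Counted by call, the omission of some library ended 6 of 21 between the control sets, 10 of 14 between the model sets and 3 of 5 between the intervene sets. It ended 4 of 11 for intervene against control in replicates 4 to 6 and 3 of 6 interactions. No call changed sign. The share of all genes called was counted in the main fit only. Counts of members under the alternatives, here and above, therefore stand without a background share, and a rise or fall may follow that of all genes. DESeq2 called 1 member for model against control in replicates 4 to 6, 4 for intervene against model in replicates 4 to 6, 12 between the intervene sets, and 2 each for the interactions of model against control and intervene against model. Library totals gave 2 for intervene against model in replicates 4 to 6. Limma on log2(FPKM + 0.1) gave 2 there and 8 between the intervene sets. Leaving out 1 library gave 1 to 3 calls for intervene against model in replicates 4 to 6, 7 to 12 for intervene against control in replicates 4 to 6, 15 to 21 between the control sets, 7 to 17 between the model sets, 2 to 9 between the intervene sets, and 0 to 1 and 3 to 8 for the interactions of intervene against model and intervene against control; the other counts stayed at 0. With the replicate number as a block, the whole-group comparisons gave 0 calls, intervene against control in replicates 4 to 6 gave 11, intervene against model there 1, and its interaction with control 5, Htr5b being lost (adjusted p = 0.0821). The block changed no other call. Only 4 of 12 control and model libraries correlated best with their own number. Between sets no paired analysis was possible because each replicate number belongs to 1 set. Members of a few counts, such as Adra2b, Drd3 and Htr2b, are limited by depth.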
